A study of Mus musculus with 2 samples.

Results

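The Ena/VASP proteins and the WAVE complex, which both drive actin assembly at the edge of cells, were examined at the mRNA level in the mouse microglial cell line BV2. The gene set held 10 genes chosen by name, with earlier results of these data known. They were the Ena/VASP genes Enah, Evl and Vasp, and the WAVE complex genes Wasf1, Wasf2, Cyfip1, Abi1, Brk1, Nckap1 and Nckap1l. Of these, 9 had a transcript cluster (a group of probes that together measure a gene) with exactly 1 gene symbol, out of 19938 such genes on the arrays, and Cyfip1 had none. BV2 is an immortalized line derived from microglia, the resident macrophages of the brain. The cells were plated in DMEM/F12, a nutrient-rich medium, and on the next day were moved to the standard medium DMEM or given DMEM/F12 again for 1 d, each with serum and with penicillin and streptomycin. The submitters' labels describe the incubation as longer than 1 day. The study had seen more elongated cells in DMEM/F12 and used the arrays to look for genes behind that shape. Each medium had 1 Affymetrix Mouse Gene 1.0 ST array, so there is no replicate error and no p-value is given, and the differences hold for these 2 arrays only.

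Ena/VASP proteins bind the growing ends of actin filaments, keep capping proteins away and feed actin bound to profilin into the filament, which lengthens unbranched filaments in filopodia and lamellipodia. They are brought to membranes and adhesions by partners with proline-rich stretches, and the FAT cadherins FAT1 and FAT3 have been linked to them in this way. The WAVE complex instead starts branched networks: when the small GTPase Rac binds it, its WASF subunit is freed and activates the Arp2/3 complex. Each complex is built from 1 WASF protein, 1 CYFIP protein, 1 NCKAP protein, 1 ABI protein and BRK1, and most positions can be filled by paralogs. In macrophages and microglia these proteins serve ruffling, migration, phagocytosis and the extension of processes.

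Most of the measured members had similar mRNA levels on both arrays. The widest differences on the log2 scale were those of Nckap1 (0.43), Evl (0.29) and Nckap1l (0.21). Of all genes, 6.19% lay at least as far from 0 as Nckap1, 18.6% as far as Evl and 32.0% as far as Nckap1l. Of the 8 members above background, 3 had a higher value in DMEM/F12 (Nckap1, Evl and Nckap1l), 4 had a lower one and Wasf2 had the same value to 2 decimals. Of the 13225 genes above background 48.5% were higher and 47.4% lower. None of the 9 members reached a 2-fold difference, which 0.0602% of all genes reached upwards and 0.0251% downwards. None reached 1.5-fold either (0.928% of all genes upwards and 0.727% downwards). Enah lay below background on both arrays and gives no fold, so only the 8 other members could be judged. The median log2 difference, always DMEM/F12 minus DMEM, was -0.02 over the 9 members, -0.01 over the 8 above background and 0.00 over all genes. Background was the 95th percentile of the sensory receptor genes on each array (log2 4.15 for DMEM and 4.17 for DMEM/F12).

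**Figure D1:**
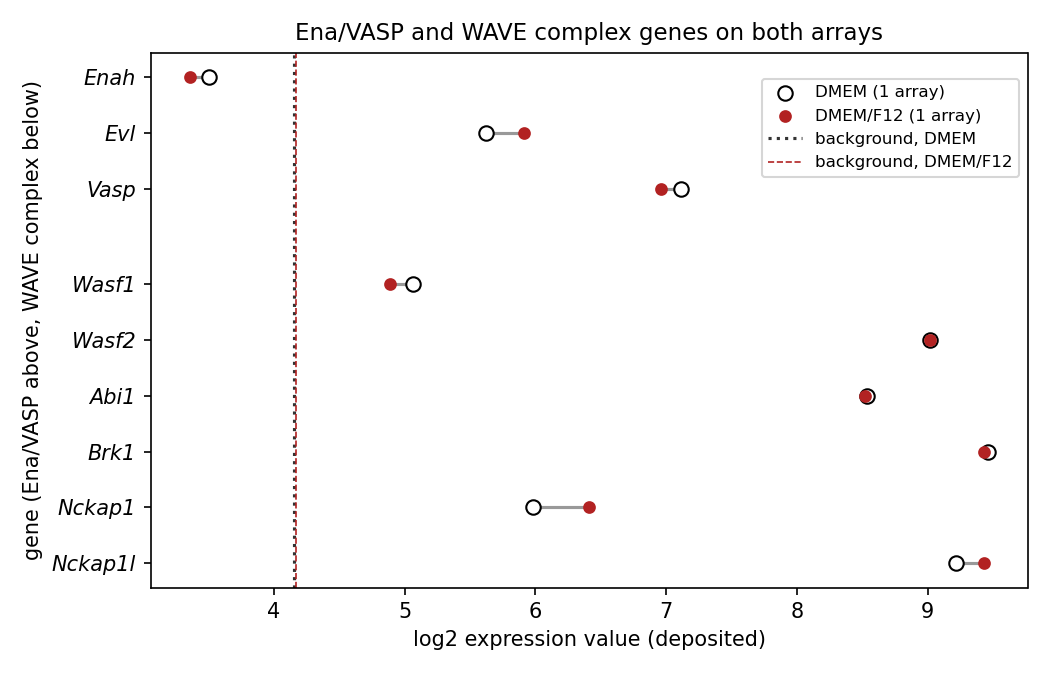
Deposited log2 expression value (x axis) of the 9 measured genes (y axis) after culture in DMEM (open) or DMEM/F12 (red), 1 array each, with gray connecting lines and vertical lines at background. Nckap1 (5.98 and 6.41) and Evl (5.62 and 5.91) show the widest gaps, and Enah lies left of background on both arrays; levels of different genes are not comparable, since each cluster has its own probes.

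Among the Ena/VASP genes, Evl and Vasp differed in opposite directions and Enah was not detected above background. Evl encodes the family member that is abundant in blood cells. Its cluster (10398267) read 5.62 with DMEM against 5.91 with DMEM/F12 on the log2 scale, a difference of 0.29 or 1.22-fold. Of all genes, 18.6% lay at least as far from 0, and 90.4% had a lower difference. Vasp, the founding member of the family and a substrate of cyclic nucleotide-dependent kinases, was measured by cluster 10560459. It read 7.11 with DMEM against 6.96 with DMEM/F12, a log2 difference of -0.15 or 1.11-fold lower. Differences of this size were common on these arrays, where 50.2% of all genes lay at least as far from 0. The log2 differences of Evl and Vasp were 0.44 apart. Enah, which encodes the mammalian Ena protein of neurons and epithelia, read 3.50 with DMEM against 3.36 with DMEM/F12 (log2). Both values lie below background, so they give a bound on the level and no fold.

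The sequence upstream of Evl is shown because the RefSeq table of GRCm38.p6 lists 2 starts for this gene, 51046 bases apart, while the array gives 1 value for both. The upstream sequence of Vasp, which has 1 listed start, is shown beside it as that of the other Ena/VASP gene above background. Each run holds the 250 bases before a start, written 5′ to 3′ on the strand of the gene, and capitals mark the GC box GGGCGG or its reverse complement CCGCCC, a motif bound by Sp1-like factors.
Evl, first start, chr12:108554470-108554719, plus strand: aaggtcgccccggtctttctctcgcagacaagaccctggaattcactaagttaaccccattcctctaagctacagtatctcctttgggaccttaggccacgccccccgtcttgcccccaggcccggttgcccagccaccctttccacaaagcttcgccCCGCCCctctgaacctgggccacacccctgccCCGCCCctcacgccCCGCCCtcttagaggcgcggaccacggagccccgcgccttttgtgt
Evl, second start, chr12:108605516-108605765, plus strand: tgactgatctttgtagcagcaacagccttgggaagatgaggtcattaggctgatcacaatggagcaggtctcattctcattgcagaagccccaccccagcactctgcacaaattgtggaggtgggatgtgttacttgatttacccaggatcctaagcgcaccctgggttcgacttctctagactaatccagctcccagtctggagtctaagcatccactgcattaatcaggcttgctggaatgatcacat
Vasp, chr7:19271855-19272104, minus strand: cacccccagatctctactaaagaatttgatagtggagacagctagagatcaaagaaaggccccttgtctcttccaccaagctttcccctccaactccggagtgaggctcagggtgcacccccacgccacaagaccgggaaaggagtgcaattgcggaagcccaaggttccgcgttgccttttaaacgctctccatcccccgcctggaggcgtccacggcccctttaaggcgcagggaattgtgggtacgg
The first Evl stretch held 3 GC boxes and 64.0% G and C, while the second held none and 49.2%. The Vasp stretch held none and 57.2%. Of the other members in the table, Enah had 6 GC boxes, Wasf2 had 2, Wasf1 had 1, and Abi1 and Brk1 had none. A GC box on either strand was present in 32.7% of the 32851 upstream stretches of the table. These matches describe the letters only, and the arrays do not show which Evl start was used.

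In the WAVE complex, the 2 NCKAP genes were higher on the DMEM/F12 array, while Abi1, Brk1 and both WASF members were level or lower by 0.17 at most (log2). NCKAP proteins form, with CYFIP proteins, the large platform of the complex that receives Rac. Nckap1, the widely expressed form, was measured by cluster 10484318, which read 5.98 with DMEM against 6.41 with DMEM/F12 (log2). Its difference of 0.43 (1.35-fold) was the largest of the 9 members. Of all genes, 6.19% lay at least as far from 0, and 96.7% had a lower difference. Nckap1l, which encodes HEM1, the form of blood cells and macrophages, read 9.22 with DMEM against 9.43 with DMEM/F12 (log2, cluster 10427336). This was a log2 difference of 0.21 or 1.16-fold, and 32.0% of all genes lay at least as far from 0. Both NCKAP genes were thus higher with DMEM/F12, and their log2 differences were 0.22 apart.

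Wasf2, the WASF protein of macrophages and most other cells, read 9.02 on both arrays (log2). Abi1, the adaptor that ties the WASF protein to its partners, read 8.54 with DMEM against 8.52 with DMEM/F12, a log2 difference of -0.02. Brk1, the small subunit needed for the stability of the complex, read 9.46 against 9.43, a log2 difference of -0.03. The deposited values have steps of 0.01, so these last 2 differences are only a few steps wide. Wasf1, the form known best from neurons, read 5.06 with DMEM against 4.89 with DMEM/F12, a log2 difference of -0.17 or 1.13-fold lower. Its signal was weak, at 0.91 and 0.72 above background on the log2 scale. The log2 difference of Nckap1 was 0.45 above that of Abi1, 0.46 above that of Brk1 and 0.43 above that of Wasf2.

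**Figure D2:**
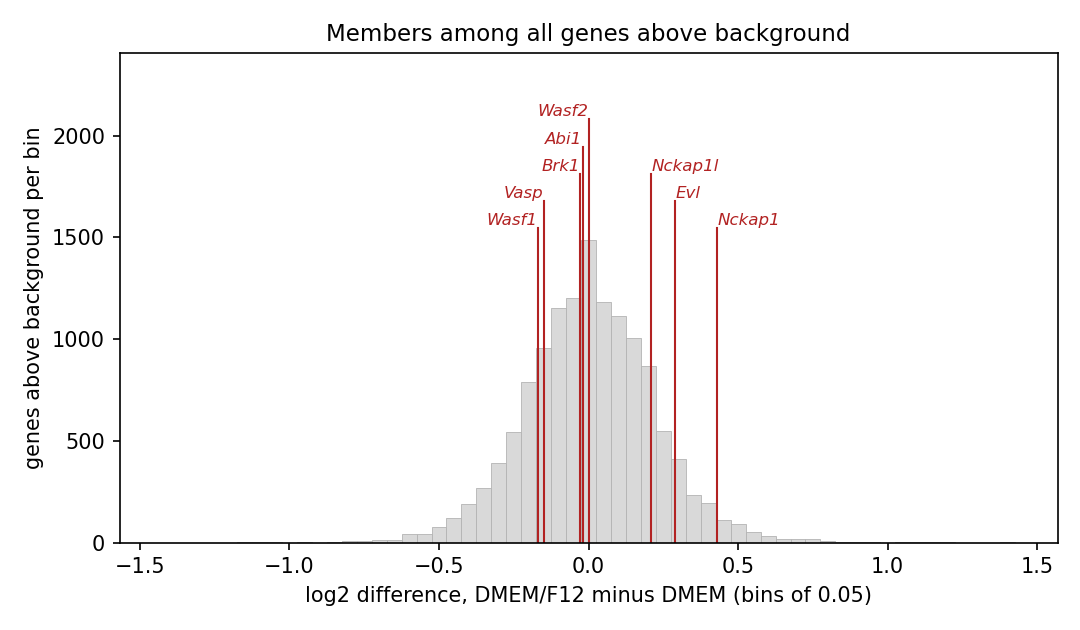
Number of genes (y axis) against the difference on the log2 scale (x axis, bins of 0.05, DMEM/F12 minus DMEM), for the 13225 genes above background on at least 1 array, with red lines at the 8 members above background. Wasf2, Abi1 and Brk1 stand at the centre, and Nckap1 at 0.43 is the only member outside the 5th to 95th percentile (-0.35 to 0.35).

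The paralogs that can take the same positions in the WAVE complex were also measured. Cyfip2, which can stand in for Cyfip1, read 8.35 with DMEM against 8.73 with DMEM/F12, a log2 difference of 0.38 or 1.30-fold and 0.05 below that of Nckap1. Abi3, the ABI paralog found in microglia and other blood-derived cells, differed the other way, with 7.25 against 6.98 (a log2 difference of -0.27 or 1.21-fold lower). Abi2 read 7.81 against 7.90. Wasf3 read 4.47 against 4.66, a weak signal close to background (4.15 and 4.17). Of these 4 paralogs, 3 were higher and 1 lower, with a median difference of 0.14. Over all genes, 47.2% were higher and 45.5% lower, the shares to set beside this count and those of the lists below.

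Downstream of the WAVE complex, the Arp2/3 complex, which nucleates branches, showed small differences in both directions. Of 10 genes in the list, 7 were measured, 3 of them higher and 4 lower, with a median difference of -0.09. Arpc5l differed by 0.21, Arpc4 by -0.18 and Arpc1b, the mean of 2 clusters, by 0.15. The WASP family and its partners, another route to the Arp2/3 complex, had 4 higher, 3 lower and 1 equal of 8 genes and a median of 0.01. Its largest differences were those of Wipf3 (-0.13), of Was, the WASP gene of blood cells (-0.11), and of Washc1, a WASH complex gene of endosomes (0.08).

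Upstream of the WAVE complex, Rac1 and Rac2, the GTPases that engage it, lay close to equal, while some Rac activators were higher on the DMEM/F12 array. Rac1 read 10.78 with DMEM against 10.76 with DMEM/F12 (log2), and Rac2, the form of blood cells, differed by 0.10. Rac3, Rhog and Arf1 had log2 differences of -0.24, -0.23 and -0.23. Dock1, a Rac activator in the uptake of dying cells, read 6.67 against 7.18, a log2 difference of 0.51 or 1.42-fold, whereas its partner Elmo1 read 6.92 against 6.91. Arhgef7 was higher by 0.32. Tiam2 was below background with DMEM and above it with DMEM/F12, so its log2 difference of 0.44 rests in part on a dim value. The list of 19 GTPases and activators had 9 higher, 8 lower and 2 equal genes, with a median of 0.00. Rac1, Rac2, Rac3, Rhog, Arf1 and Elmo1 were picked after their values were seen.

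The binding partners of Ena/VASP proteins had a median difference of 0.17, with 12 of 15 measured genes higher and 3 lower. Over all genes the median was 0.00, with 47.2% higher and 45.5% lower. The median of the partners became 0.07 once every value under background was set to the background level. Over only the 13 partners above background on at least 1 array it was 0.17. Below background on both arrays were 2 of the 12 higher genes (Pfn2 and Robo1), and Palld was below it with DMEM. Lasp1, an actin-binding adaptor of focal adhesions, read 8.74 with DMEM against 9.17 with DMEM/F12, a log2 difference of 0.43. Fat1 read 4.93 against 5.25, a log2 difference of 0.32 from a weak signal, with background at 4.15 and 4.17. Fat3 averaged 4.03 against 4.60 over its 15 clusters, a log2 difference of 0.58 from a mean below background with DMEM. Of its clusters 14 were higher in DMEM/F12, and their differences ranged from -0.82 to 1.47 over all 15. The study chose Fat3 on these arrays, so its value is not independent evidence for the list. By RT-qPCR on BV2 cells the study also reported more Fat3 mRNA in DMEM/F12. Other partners lay closer to equal. Pfn1, the main profilin, read 11.92 against 11.90, Zyx, which brings Ena/VASP proteins to focal adhesions, read 7.27 against 7.17, and Raph1, which brings them to the leading edge, read 6.77 against 6.82. Pfn1, Zyx and Raph1 were picked after their values were seen.

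Formins, which lengthen unbranched filaments as Ena/VASP proteins do, had 7 higher and 5 lower of 12 measured genes and a median of 0.09. Diaph3 read 5.90 with DMEM against 6.35 with DMEM/F12, a log2 difference of 0.45, and Fhod1 differed by 0.24. Daam2, below background in DMEM, differed by 0.28. Among 19 genes that cap or sever filaments or act on branches, 11 were higher, 6 lower and 2 equal, with a median of 0.02. Gsn, the severing protein gelsolin, was higher by 0.39 and Coro1b, which removes Arp2/3 from branches, by 0.31. Cttn, which encodes cortactin and steadies branches rather than restraining them, was higher by 0.28 from a DMEM value below background. In all, 84 of the 89 list genes were measured and none reached 1.5-fold, as among the members.

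**Figure D3:**
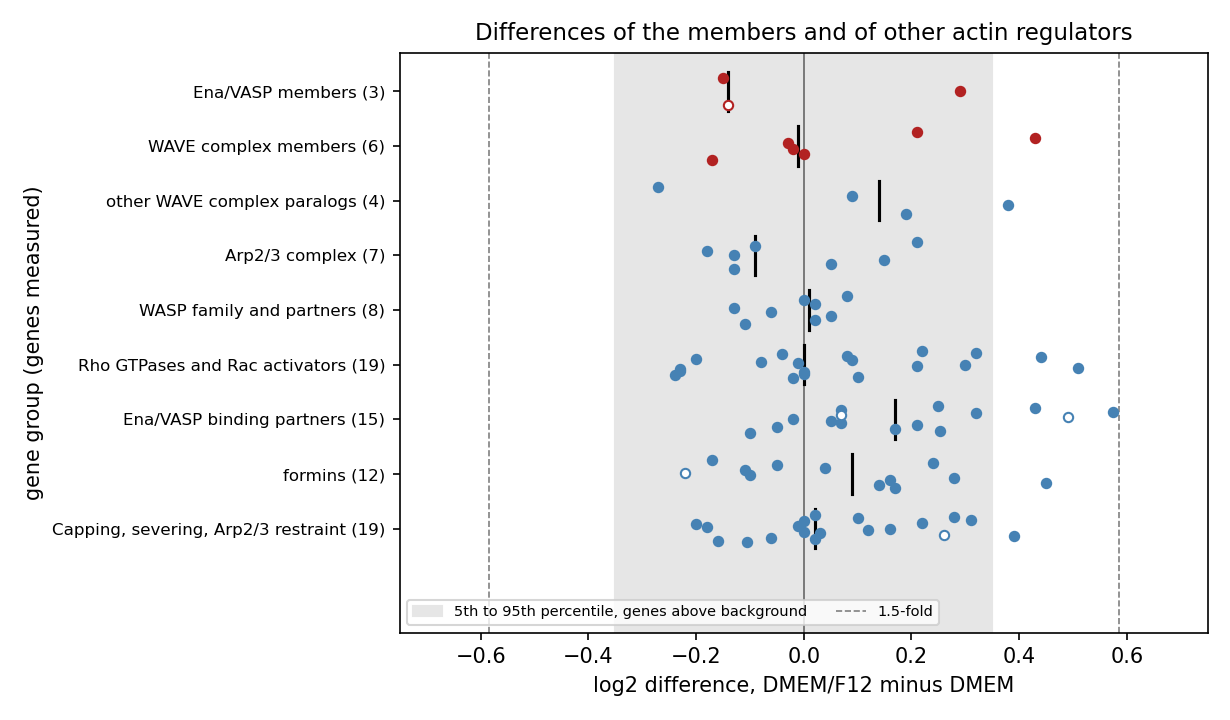
Difference on the log2 scale (x axis, DMEM/F12 minus DMEM) for the measured genes of the Ena/VASP and WAVE complex members (red) and of the 7 lists of other actin regulators (blue), by group (y axis, number measured in parentheses). Open dots are genes not above background on either array, black bars are group medians, the gray band spans the 5th to 95th percentile of genes above background and dashed lines mark 1.5-fold; the median of the Ena/VASP binding partners lies at 0.17 and that of the WAVE complex members at -0.01.

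As a check of the label of a microglial line, 10 of 12 microglia or macrophage markers were above background and 2 (Aif1 and P2ry12) were below it on both arrays. Of these 12 markers, 6 were higher in DMEM/F12, 5 lower and 1 equal, with a median log2 difference of 0.005. The lowest difference, -0.66, was that of Tmem119, a marker of mature microglia (6.71 with DMEM against 6.05 with DMEM/F12). Of all 19938 genes, 13225 were above background on at least 1 array. With DMEM, where background was 4.15, the microglia or macrophage markers had a median of 8.29 (log2). That median was 4.705 for the fibroblast and 4.35 for the oligodendrocyte markers. Such medians are a rough guide only, since levels of different genes are not comparable and the ranges of the marker groups overlap. Above background were also 1 of 6 neuron, 1 of 6 astrocyte, 4 of 5 measured oligodendrocyte and 4 of 6 fibroblast markers. Their part in the differences above was not tested. Medium and any other difference between the 2 cultures cannot be told apart.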

How the data were processed

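BV2 RNA from 1 culture condition per array was measured on 2 Affymetrix Mouse Gene 1.0 ST arrays. The authors processed them with Transcriptome Analysis Console and Affymetrix Expression Console, as the methods and the submitters' processing notes say, and deposited log2 values of 28944 transcript clusters with 2 decimals. The probe summarization, the scaling of the arrays, the build and the program versions were not given in the sources used here. Medians of the arrays were 4.75 (DMEM) and 4.77 (DMEM/F12), and no further scaling was applied.

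The labels gave the medium of each array. Gene symbols came from the platform annotation, in which 21789 clusters have 1 symbol, 1621 several and 5534 none. Clusters of a gene were averaged, and each of the 9 measured members has 1 cluster and the same symbol in RefSeq of GRCm38.p6. Background was set from 1248 clusters of sensory receptor genes (symbols of olfactory, taste and vomeronasal receptors). In 1 case a list gene was found under its newer symbol (Wash1, now Washc1). The members, lists, thresholds and the naming rule were chosen with earlier results of these data known. The rule named all members, Fat1, Fat3 and, per list, the 3 detected genes farthest from 0. With 1 array per medium no test was run, and precision is limited by the number of arrays. The planned comparison of protein sequences was not run. Nckap1, Nckap1l and Cyfip1 had no entry in the table of upstream sequences. The steps were tested on simulated data with 100 genes set 3-fold higher and 100 set 3-fold lower, of which 99 and 99 passed 2-fold. Smaller differences, such as those of the members, were not simulated. Python 3.11.15, numpy 2.4.6, pandas 2.3.3, scipy 1.17.1, statsmodels 0.14.6 and matplotlib 3.10.9 were used.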

Additional observations from a re-analysis of the deposited data

How the results depend on the processing

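No paired analysis was possible because there is 1 array per medium, which also leaves no replicate to omit. Shifts over 0.1 (log2) and counts over 1.5 times apart were taken as moved. Of 161 recomputed values, 157 stayed within these limits and 4 moved. Median centring, quantile normalization, subtraction of a loess curve (span 0.3), the brightest cluster per gene and the inclusion of clusters with several symbols shifted no member's difference by more than 0.03. Across all alternatives Nckap1 stayed between 0.41 and 0.44, Evl between 0.27 and 0.30 and Vasp between -0.17 and -0.14. Wasf2 ranged from -0.02 to 0.03 and Abi1 from -0.04 to 0.00, so their direction is not settled, and with the loess curve subtracted 5 of the 9 members were higher in place of 3, the added ones being Wasf2 (0.02) and Abi1 (0.00 to 2 decimals). With values below background raised to it, Enah moved from -0.14 to 0.02 and the median of the Ena/VASP genes likewise to 0.02. Since Enah lay below background on both arrays, this 0.02 is only the gap between the 2 background levels. With only genes above background the median of the Ena/VASP genes was 0.07 over 2 genes. The members past 2-fold (0) stayed at 0 at a 1.5-fold threshold, and 8 members stayed above background on at least 1 array when it was set at the 99th percentile of the receptor clusters, with Wasf1 (4.89) then below it (4.94) on the DMEM/F12 array. The median of the Ena/VASP binding partners fell from 0.17 to 0.07 with values below background raised to it, a shift at the limit of 0.1. With only genes above background it stayed at 0.17, over 13 genes.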
